A study of Homo sapiens with 4 samples.

Results

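The genes described here are 38 genes of the NRF2 antioxidant programme and of glutathione metabolism. They were chosen by name and role, with earlier results of these data known. The set holds the regulators NFE2L2 and KEAP1, and genes of quinone, heme, iron, glutathione, thioredoxin, NADPH, aldo-keto reductase (AKR) and drug metabolism. All 38 were found among the 60558 genes of each library. They were measured in A549 and HCC827, established human lung adenocarcinoma (LAD) cell lines, each as vector-transduced and as myr-AKT1-transduced cells (A549-vector, A549-myr-AKT1 and likewise for HCC827). The vector cells carry the empty construct, and the myr-AKT1 cells carry an AKT1 with a myristoylation signal, which keeps the kinase at the membrane and active. Whether a transduced line was a pool or a clone is not given in the sources used here. Each condition was 1 RNA-seq library, so a difference within a line has no replicate check.

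NRF2, the protein of NFE2L2, is a transcription factor that KEAP1 binds and hands to a ubiquitin ligase for degradation. When oxidants or electrophiles modify KEAP1, NRF2 escapes, pairs with a small MAF protein and binds antioxidant response elements (AREs) near genes that make glutathione, supply NADPH, reduce quinones and carbonyls, and store iron. Loss of KEAP1 function by mutation is frequent in LAD and leaves NRF2 constantly active. A549 is such a KEAP1-mutant line, whereas HCC827 is best known for its activating EGFR deletion.

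The ARE core is written TGACNNNGC, and the longer form searched has an A directly after it. RefSeq promoters of GRCh38.p14, from 250 bases before to 50 bases after the gene start, were matched for 31 of the 38 genes, and both strands were searched. The core was found in 8 of the 31 (25.8%), against 13.6% of 27305 promoters of the same length. The longer form was found in 4 (12.9%), against 3.26% of all promoters. The AP-1 motif TGANTCA, which can lie inside an ARE, was found in 3 (9.68%), against 7.76% of all. Core and AP-1 motif overlapped in ME1 and GSTP1. A match describes the letters of this window only. The core was also found in GSTA4 and CBR1, whose stretches are not shown. For the other 6 of the 8 genes, stretches around the core are given 5′ to 3′ on the strand of the gene. The core or its reverse complement is in capitals.
GPX2, chr14:64942837-64942889, minus strand: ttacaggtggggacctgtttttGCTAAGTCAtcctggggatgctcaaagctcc
PGD, chr1:10398841-10398893, plus strand: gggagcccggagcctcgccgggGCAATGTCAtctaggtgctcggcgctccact
GCLM, chr1:93909434-93909486, minus strand: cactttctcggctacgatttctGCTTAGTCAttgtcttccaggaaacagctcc
TXNRD1, chr12:104215658-104215710, plus strand: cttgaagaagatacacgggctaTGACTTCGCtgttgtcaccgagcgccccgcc
ME1, chr6:83431158-83431210, minus strand: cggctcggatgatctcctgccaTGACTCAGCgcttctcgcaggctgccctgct
GSTP1, chr11:67583724-67583776, plus strand: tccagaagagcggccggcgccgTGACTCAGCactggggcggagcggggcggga

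The libraries held 16322183 to 33530317 reads assigned to genes. The deposited value of a gene is its number of reads over a size factor, here called the normalised count, and it can be compared within a line only. A log2 fold is the log2 ratio of myr-AKT1 to vector cells of the same line, and brackets hold its 95% interval from the reads, which covers counting error and not variation between cultures. Levels of different genes and of the lines are given as TPM, computed here from the reads and the exon length. AKT1, whose reads include any from the construct, had a log2 fold of 0.57 in A549 and 1.14 in HCC827 cells. CDKN2A, which A549 is known to lack, had 0 reads in both A549 libraries. EGFR had 814 TPM in HCC827-myr-AKT1 and 1751 TPM in HCC827-vector cells, against 70.9 and 59.5 TPM in A549. Its log2 fold was thus -1.17 (-1.18 to -1.15) in HCC827 and 0.17 (0.13 to 0.22) in A549. The 9 markers of lung and epithelial cells summed to 5845 TPM in A549-vector and 5354 TPM in A549-myr-AKT1 cells. In HCC827 the sums were 8387 and 4785 TPM. There KRT8 had 1248 TPM in vector and 373 TPM in myr-AKT1 cells, and KRT18 had 2312 and 717 TPM. CDH1 was the only marker of the 9 that was higher in HCC827-myr-AKT1 cells, with 706 TPM against 544 TPM in vector cells. In A549, EPCAM, KRT7, KRT19, CDH1 and NKX2-1 were higher in myr-AKT1 cells and KRT8, KRT18 and NAPSA lower. KRT19 had 18.0 TPM in A549-vector and 119 TPM in A549-myr-AKT1 cells. The 10 markers of other cell types were higher in myr-AKT1 cells in sum, with 1.60 TPM in A549-vector and 17.0 TPM in A549-myr-AKT1 cells (8 of 10 with reads in each), and 4.26 and 8.91 TPM in HCC827 (9 and 6 of 10 with reads). Most of this was COL1A1 in the A549-myr-AKT1 library, at 11.4 TPM against 1.08 TPM in vector cells, and COL1A1 had 3.76 against 0.897 TPM in HCC827. The T cell marker CD3E had 0 reads in all 4 libraries. The part of these marker differences in the results on myr-AKT1 was not tested. Of the lung markers NKX2-1 was at 0 and 0.387 TPM and SFTPB at 0 TPM in A549, so these defining markers were at or near 0 there.

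The set stood much higher in A549 than in HCC827 cells, between vector cells and also between myr-AKT1 cells. The 38 genes together made up 5.08% of all TPM in A549-vector and 4.39% in A549-myr-AKT1 cells, but 0.890% in HCC827-vector and 2.02% in HCC827-myr-AKT1 cells. In the limma fit of the lines, on values rescaled over the 4 libraries, 20 of the 37 genes tested were higher in A549 and 0 were lower at an adjusted p under 0.05. At an unadjusted p under 0.05, 25 were higher and 1, IDH1, was lower (21.7% and 19.3% of all genes), and edgeR called 0 and DESeq2 1 lower. Over all 19314 genes 15.5% were higher and 13.9% lower. The fit took the vector and myr-AKT1 libraries of a line as its replicates and left 1 residual degree of freedom. Its p-values, here and below, thus rest on the spread assumed from other genes. Without myr-AKT1 as a covariate it called 10 members and 1645 of all genes higher in A549. The median log2 difference of the 37 genes was 1.44. Between the myr-AKT1 libraries alone it was 1.04. Between the vector libraries alone it was 1.99 over the 35 of these genes with reads in both, which leaves out CES1 and GSTA2.

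Aldo-keto reductases were among the genes with the largest differences between lines. AKR1C2, a steroid and carbonyl reductase, had 2787 and 1852 TPM in A549-myr-AKT1 and A549-vector cells and 20.1 and 0.0474 TPM in HCC827-myr-AKT1 and HCC827-vector cells. Its log2 difference was 10.99 (SE 1.51, limma adjusted p = 0.0034). AKR1B10, a reductase of retinal and lipid aldehydes, had 4191 and 4129 TPM in A549-myr-AKT1 and A549-vector cells against 684 and 73.2 TPM in the HCC827 libraries, a log2 difference of 4.34 (SE 0.677, limma adjusted p = 0.00522). PGD, which makes NADPH in the pentose phosphate pathway, had 1797 and 2198 TPM in A549 against 283 and 113 TPM, a log2 difference of 3.60 (SE 0.40, limma adjusted p = 0.0016). NQO1, the quinone reductase often used as a readout of NRF2, had 1692 and 2428 TPM in A549 against 611 and 536 TPM, a log2 difference of 1.95 (SE 0.295, limma adjusted p = 0.0047). In all of these genes both A549 libraries lay above both HCC827 libraries. The light chain of ferritin, FTL, was at 17124 and 23500 TPM in A549, the highest levels of the set, against 3709 and 1416 TPM in HCC827 (log2 difference 3.26, SE 0.465, limma adjusted p = 0.0039). HMOX1, heme oxygenase, had 206 and 143 TPM in A549 against 21.3 and 9.89 TPM (3.68, SE 0.285, limma adjusted p = 0.000563), and SLC7A11, the cystine importer, 158 and 214 against 46.1 and 32.5 TPM (2.37, SE 0.291, limma adjusted p = 0.00225). The other genes called higher in A549 were AKR1B1, AKR1C1, AKR1C3, CBR1, CES1, EPHX1, GPX2, GSTA2, GSTA4, ME1, TALDO1, TXN and UGT1A6.

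The regulators were not among the genes called between lines. NFE2L2 had 23.0 and 31.6 TPM in A549-myr-AKT1 and A549-vector cells and 53.6 and 33.4 TPM in HCC827-myr-AKT1 and HCC827-vector cells, with a log2 difference of -0.52 (SE 0.316, limma adjusted p = 0.264). On the rescaled values behind this fit, the log2 difference of NFE2L2 was 0.03 (-0.04 to 0.09) between the vector libraries and -1.08 (-1.15 to -0.998) between the myr-AKT1 libraries. KEAP1 had 45.8 and 74.4 TPM in A549 and 68.1 and 64.3 TPM in HCC827, and the lines overlapped (-0.06, SE 0.281, limma adjusted p = 0.904). These are RNA levels, and neither the KEAP1 mutation nor NRF2 protein was measured here. Some members did not follow the set. FTH1, the ferritin heavy chain, had 2886 and 3331 TPM in A549 against 6059 and 1293 TPM in HCC827, so the lines overlapped. They also overlapped for TXNRD1 (447 and 786 against 949 and 618 TPM) and GSTP1 (785 and 1098 against 1853 and 1065 TPM). The same held for GSTM3 (12.5 and 5.23 against 19.0 and 7.11 TPM). The log2 differences of TXNRD1, GSTP1 and GSTM3 were -0.25, -0.47 and -0.40, and none was called. IDH1, a cytosolic source of NADPH, was lower in both A549 libraries, with 254 and 174 TPM against 484 and 297 TPM (-0.73, SE 0.236, limma adjusted p = 0.0637).

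**Figure D1:**
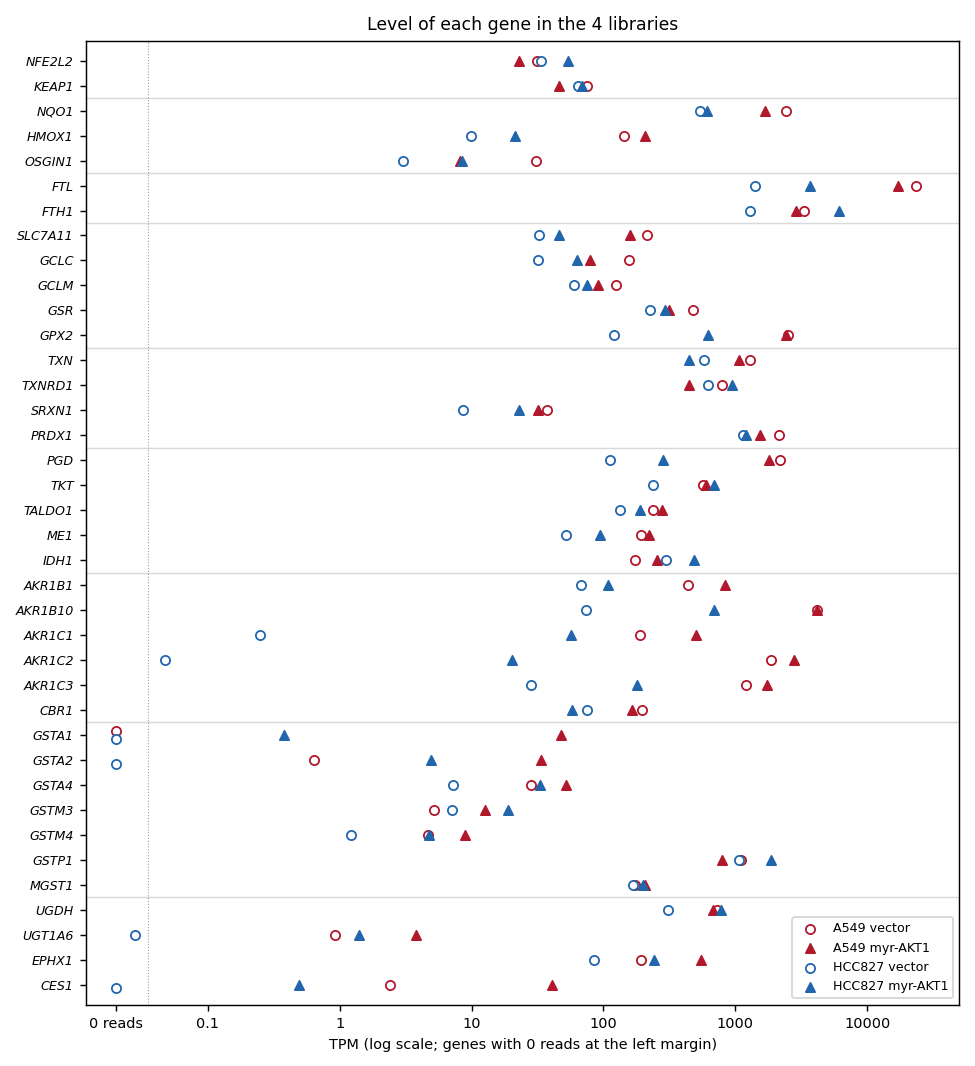
Level of each of the 38 genes in the 4 libraries, in TPM on a log axis, with circles for vector and triangles for myr-AKT1 cells, A549 in red and HCC827 in blue, 1 point per library; genes with 0 reads sit at the left margin. The A549 points lie to the right for most genes, and FTL has the highest level at 23500 TPM.

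Next, myr-AKT1 cells were compared with vector cells in each line. The log2 folds of these genes differed between the lines in the libraries at hand. In A549, 37 of the 38 genes could be counted (at least 1 read in both libraries and a mean normalised count of at least 10). Of these 6 had a log2 fold above 1, against 14.8% of the 18688 genes counted, and 2 were below -1, against 9.86%. The median log2 fold was -0.12 for the 37 genes and -0.04 for all genes. In HCC827, 35 genes could be counted, 18 of them had a log2 fold above 1, against 14.0% of 17306 genes, and 0 were below -1, against 12.4%. The median there was 1.05, against -0.04 for all genes. With genes that had 0 reads in vector cells placed at their lower bound, the medians were -0.09 over 38 genes in A549 and 1.26 over 37 in HCC827. Among genes with a mean of at least 500, a limit set after seeing that most members are abundant, 10 of 27 were above 1 in HCC827 (7.01% of all such genes) and the median was 0.64 (-0.10 for all). In A549 2 of 32 were then above 1 and 2 below -1 (6.81% and 7.26% of all), and in HCC827 0 were below -1 (9.21%). Past a log2 fold of 2 there were 2 members above and 0 below in A549 (5.52% and 2.78% of all), and 8 above and 0 below in HCC827 (4.44% and 519 of 17306 genes).

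**Figure D2:**
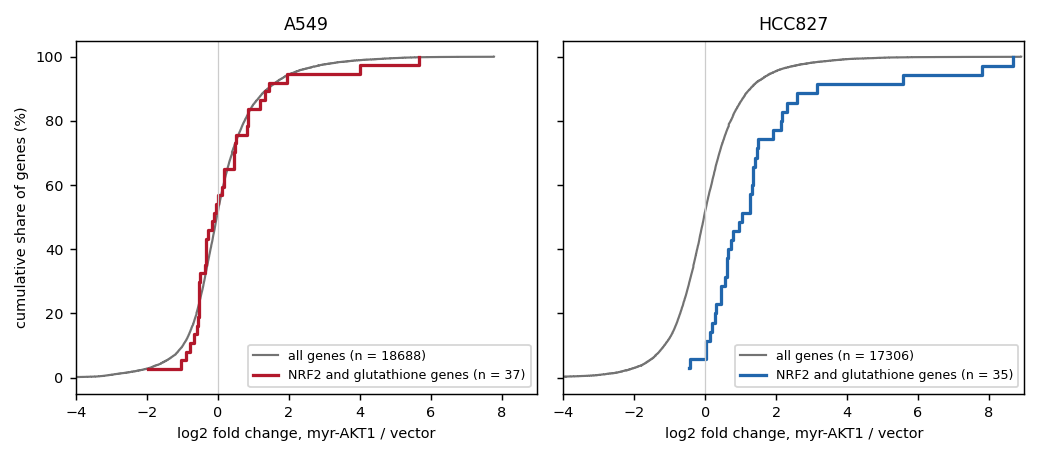
Cumulative share of genes, in percent, against the log2 fold of myr-AKT1 over vector cells, for all counted genes in grey and the NRF2 and glutathione genes in colour. In A549 the curves run close together (medians -0.04 and -0.12), and in HCC827 the coloured curve lies to the right (medians -0.04 and 1.05).

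By counting error alone, 16 of 37 genes in A549 had an interval above 0 and 20 below 0, against 33.1% and 36.6% of all genes. In HCC827 31 of 35 were above 0 and 2 below, against 33.4% and 37.1%. In 16 of the 35 genes counted in both lines the interval was below 0 in A549 and above 0 in HCC827, against 7.29% of 15668 genes. The opposite pattern was seen in 0 of 35, against 7.37%. Without regard to the intervals, 18 of 35 were lower in A549 and higher in HCC827 (18.1% of all genes) and 0 the reverse (16.2%). The log2 fold in HCC827 exceeded that in A549 in 32 of 35 genes, against 53.7% of all genes, and was lower in 3, against 46.3%. A log2 fold above 1 in both lines was found for 4 of 35, which were AKR1C1, EPHX1, GSTM3 and UGT1A6, against 4.51%, and a log2 fold below -1 in both for 0, against 4.07%. In all, 14 genes had intervals above 0 in both lines, against 17.9%, and 2 below 0 in both, against 24.1%. Members have more reads than most genes and so narrower intervals, and with 1 library per condition the difference between lines could not be tested. Across the 35 genes the folds of the lines had a Pearson r of 0.51 and a Spearman rho of 0.54, against 0.43 and 0.42 over all 15668 genes, a description in which the genes share the same 4 libraries.

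**Figure D3:**
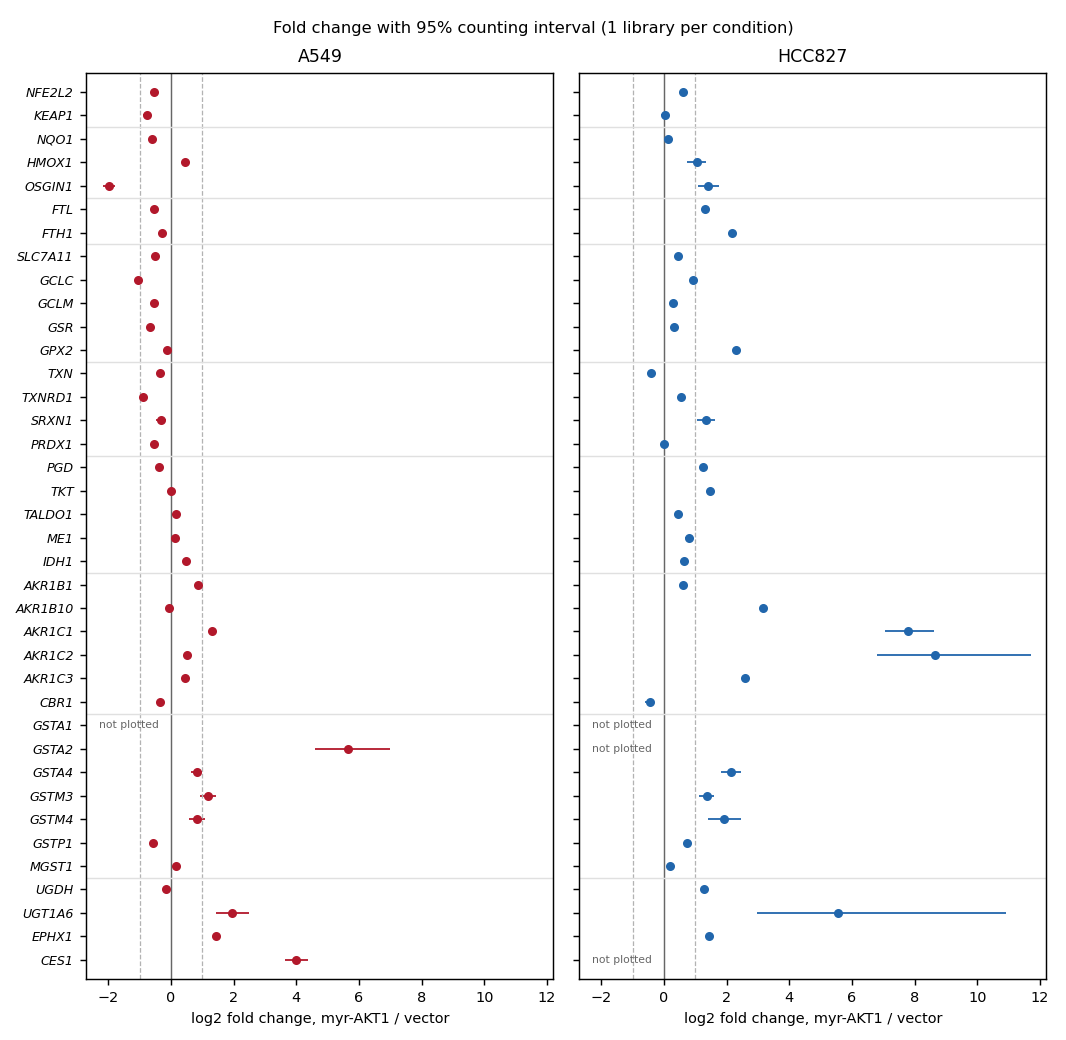
Log2 fold of myr-AKT1 over vector cells for each of the 38 genes in A549 (left) and HCC827 (right), ordered by role, with 95% counting intervals as bars and dashed lines at -1 and 1; genes not counted in a line are marked as not plotted. The lowest A549 value is that of OSGIN1 at -1.98, and the highest HCC827 value is that of AKR1C2 at 8.67.

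Of the regulators, NFE2L2 (ENSG00000116044, chr2:177218667-177392756) had 2579 normalised counts in A549-myr-AKT1 and 3742 in A549-vector cells, and 4233 against 2755 in HCC827. Its log2 fold was -0.54 (-0.61 to -0.46) in A549 and 0.62 (0.55 to 0.69) in HCC827, so its RNA was lower in A549-myr-AKT1 and higher in HCC827-myr-AKT1 cells. KEAP1 (ENSG00000079999, chr19:10486125-10503558) had 1224 against 2103 normalised counts in A549, a log2 fold of -0.78 (-0.89 to -0.68), and 1283 against 1266 in HCC827, a log2 fold of 0.02 with an interval that includes 0 (-0.10 to 0.13).

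The 3 quinone and heme genes did not move together in A549. NQO1 had 37590 normalised counts in A549-myr-AKT1 against 57087 in A549-vector cells, and 9576 against 8775 in HCC827, log2 folds of -0.60 (-0.62 to -0.58) and 0.13 (0.08 to 0.17). OSGIN1, an oxidative stress-induced growth inhibitor, had 341 against 1342 in A549 and 248 against 93.0 in HCC827, which gave -1.98 (-2.16 to -1.80) and 1.41 (1.08 to 1.76). It had the lowest A549 log2 fold of the set. HMOX1 was higher in both lines, with 3556 against 2607 and 259 against 126 normalised counts (0.45, 0.37 to 0.52, and 1.05, 0.74 to 1.35).

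Both ferritin chains, which store iron, were lower in A549-myr-AKT1 and higher in HCC827-myr-AKT1 cells. FTL had 111548 against 161962 normalised counts in A549 and 17031 against 6793 in HCC827, log2 folds of -0.54 (-0.55 to -0.53) and 1.33 (1.29 to 1.37). FTH1 had 43260 against 52825 in A549 and 64002 against 14270 in HCC827, log2 folds of -0.29 (-0.31 to -0.27) and 2.17 (2.14 to 2.19). FTH1 was the most abundant gene of the set in HCC827-myr-AKT1 cells, at 6059 TPM. Its processed pseudogenes share sequence with it, and 20.7% of the 100-base stretches of its transcript occur exactly in transcripts of other genes (3.37% for FTL). The largest share was with FTH1P7 (9.24%). Reads were looked up for 1 pseudogene only, FTH1P3, which had 26 and 30 reads in the HCC827-myr-AKT1 and HCC827-vector libraries.

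All 5 genes of glutathione supply and reduction were lower in A549-myr-AKT1 and higher in HCC827-myr-AKT1 cells, each with an interval beyond 0 on the deposited values. GCLC, the catalytic subunit of the ligase that makes the rate-limiting step of glutathione synthesis, had 5137 against 10674 normalised counts in A549 and 2880 against 1504 in HCC827, log2 folds of -1.06 (-1.10 to -1.01) and 0.94 (0.85 to 1.03). With size factors over the 4 libraries the log2 fold of GCLC in A549 was -0.95, no longer below -1. Its modifier subunit GCLM had 3696 against 5371 and 2157 against 1773 (-0.54, -0.60 to -0.48, and 0.28, 0.19 to 0.37). The subunits thus had the same signs in each line but different sizes. SLC7A11, which imports the cystine for this synthesis, had 11416 against 16327 and 2344 against 1725 (-0.52, -0.55 to -0.48, and 0.44, 0.35 to 0.53). GSR, which reduces glutathione disulfide, had 8485 against 13638 and 5581 against 4495 (-0.68, -0.72 to -0.64, and 0.31, 0.26 to 0.37). The glutathione peroxidase GPX2, whose promoter stretch is shown above, had 24279 against 26436 and 4368 against 891 (-0.12, -0.15 to -0.10, and 2.29, 2.20 to 2.39). GPX2 had the largest HCC827 log2 fold of the 5 and the smallest A549 difference. Size factors over the 4 libraries raise each A549 log2 fold by 0.102, and the upper end for GPX2 was -0.097. With them its A549 interval includes 0, so its direction there is not settled.

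The 4 thioredoxin genes were all lower in A549-myr-AKT1 cells. TXNRD1, thioredoxin reductase, had 22410 against 41714 normalised counts in A549 and 33582 against 22847 in HCC827, log2 folds of -0.90 (-0.92 to -0.87) and 0.56 (0.53 to 0.58). SRXN1, which repairs oxidised peroxiredoxins, had 600 against 753 and 306 against 121 (-0.33, -0.49 to -0.17, and 1.34, 1.04 to 1.64). Exons of SRXN1 overlap those of another annotated gene, ENSG00000270299, over 90.7% of their bases, so its count depends on how such reads were assigned. ENSG00000270299 had 2 reads in A549-myr-AKT1 and 0 reads in A549-vector cells and in both HCC827 libraries. In HCC827 thioredoxin itself, TXN, was lower as well, with 8082 against 10255 and 2379 against 3204 (-0.34, -0.39 to -0.30, and -0.43, -0.51 to -0.35). PRDX1, a peroxiredoxin that removes peroxides, had 19507 against 28322 and 10736 against 10647 (-0.54, -0.56 to -0.51, and 0.01, -0.03 to 0.05).

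The NADPH genes were split in A549 and all 5 were higher in HCC827-myr-AKT1 cells. PGD had 44786 against 57968 normalised counts in A549 and 4970 against 2073 in HCC827, log2 folds of -0.37 (-0.39 to -0.35) and 1.26 (1.19 to 1.33). TKT, transketolase of the same pathway, had 42767 against 42623 and 34636 against 12407 (0.00, -0.01 to 0.02, and 1.48, 1.45 to 1.51), and was the only member counted in A549 whose interval included 0. TALDO1, transaldolase, had 6070 against 5426 and 2890 against 2127 (0.16, 0.11 to 0.22, and 0.44, 0.36 to 0.52). The pentose phosphate genes thus had log2 folds in HCC827 from 0.44 to 1.48. ME1, the malic enzyme, had 5521 against 5087 and 1660 against 962 (0.12, 0.06 to 0.17, and 0.79, 0.67 to 0.90). IDH1 had 8914 against 6462 and 12000 against 7688 (0.46, 0.42 to 0.51, and 0.64, 0.60 to 0.68).

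AKR1C2 and AKR1C1 had the highest log2 folds of the counted members in HCC827, followed by UGT1A6, AKR1B10 and AKR1C3. AKR1C1 (ENSG00000187134, chr10:4963253-4983283), AKR1C2 (ENSG00000151632, chr10:4987775-5018031) and AKR1C3 (ENSG00000196139, chr10:5035354-5107686) are neighbours that reduce steroids and other carbonyl compounds. The coding sequences of AKR1C1 and AKR1C2 are 98.0% identical, with 19 differences in 972 bases, and those of AKR1C1 and AKR1C3 91.5%, with 83 differences. The first 90 coding bases are shown because they make visible how few positions tell the reads of these genes apart, with the 11 positions at which the 3 genes differ in capitals.
AKR1C1: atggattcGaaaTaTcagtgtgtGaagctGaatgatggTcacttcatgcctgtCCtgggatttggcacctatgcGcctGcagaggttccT
AKR1C2: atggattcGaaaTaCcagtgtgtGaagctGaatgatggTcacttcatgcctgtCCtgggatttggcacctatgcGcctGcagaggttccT
AKR1C3: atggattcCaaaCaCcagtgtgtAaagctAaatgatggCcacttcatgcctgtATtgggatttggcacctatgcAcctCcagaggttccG

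In this window AKR1C1 and AKR1C2 differ at 1 position. Of the 100-base stretches of each transcript, 27.8% of AKR1C2, 12.7% of AKR1C1 and 7.82% of AKR1C3 occur exactly in transcripts of other genes, so the split of reads among them is uncertain while their sum is less so.

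In HCC827-vector cells AKR1C1 had 15 reads and AKR1C2 had 2, and in HCC827-myr-AKT1 cells they had 2098 and 513. AKR1C1 thus had 2640 against 11.9 normalised counts, a log2 fold of 7.79 (7.07 to 8.63). AKR1C2 had 646 against 1.59, a log2 fold of 8.67 (6.81 to 11.72), with an interval that is wide because of the 2 reads. AKR1C3 was already present in vector cells, with 3682 against 608 normalised counts, a log2 fold of 2.60 (2.48 to 2.72). In A549 the same genes had far more reads and smaller log2 folds. AKR1C1 had 33090 against 13222 normalised counts (1.32, 1.30 to 1.35), AKR1C2 126867 against 89192 (0.51, 0.50 to 0.52) and AKR1C3 50737 against 37059 (0.45, 0.43 to 0.47). All 3 were thus higher in myr-AKT1 cells of both lines.

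The make-up of the 3 genes' reads differed between the lines. AKR1C2 took 63.9% and 60.2% of them in A549-vector and A549-myr-AKT1 cells (159714 and 183991 reads in all). In HCC827-vector cells AKR1C3 took 97.8% of 782 reads (exact binomial interval 96.5 to 98.7), AKR1C1 1.92% and AKR1C2 0.256%. In HCC827-myr-AKT1 cells AKR1C3 took 52.8% of 5537 reads, AKR1C1 37.9% (36.6 to 39.2) and AKR1C2 9.26% (8.51 to 10.1). AKR1C1 had fewer reads than AKR1C2 in both A549 libraries and more in both HCC827 libraries.

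**Figure D4:**
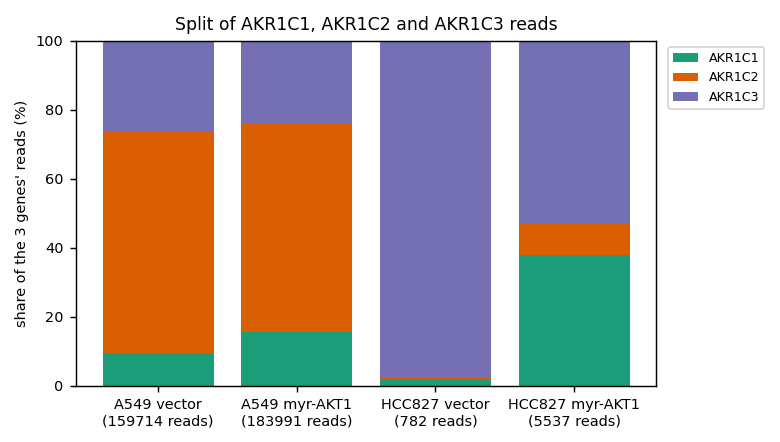
Share of the reads of AKR1C1, AKR1C2 and AKR1C3, in percent of their sum, as stacked bars for the 4 libraries, with the sum of reads under each bar. AKR1C2 has the largest share in both A549 libraries, and AKR1C3 has 97.8% in HCC827-vector and 52.8% in HCC827-myr-AKT1 cells.

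Reads of A549 origin in the HCC827-myr-AKT1 library were looked for with genes that had at least 5000 reads in each A549 library and at most 3 in HCC827-vector cells. There were 11 such genes, and 8 of them had 3 reads or fewer in HCC827-myr-AKT1 cells. ALDH3A1, an aldehyde dehydrogenase with 125794 reads in A549-vector and 56838 in A549-myr-AKT1 cells, had 0 reads in both HCC827 libraries. KRT81 and UCHL1 had 6 and 9 reads there, and AKR1C2 with its 513 reads was the last of the 11.

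The aldo-keto reductases of the other subfamily sit on chromosome 7. AKR1B10 (ENSG00000198074, chr7:134527567-134541412) had 55574 against 57921 normalised counts in A549 and 6391 against 715 in HCC827, log2 folds of -0.06 (-0.08 to -0.04) and 3.16 (3.06 to 3.26). With size factors set over the 4 libraries the A549 value was 0.04, so its direction there is not settled. AKR1B1, aldose reductase, had 22888 against 12646 and 2100 against 1365 (0.86, 0.82 to 0.89, and 0.62, 0.52 to 0.72). CBR1, a carbonyl reductase outside the AKR family, was lower in both lines, with 3014 against 3810 and 742 against 1020 (-0.34, -0.41 to -0.27, and -0.46, -0.60 to -0.32), and 25.4% of its 100-base stretches occur in another annotated gene. TXN and CBR1 were the 2 members with an interval below 0 in HCC827.

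The glutathione S-transferases couple glutathione to electrophiles, and the alpha class members GSTA1 (ENSG00000243955, chr6:52791371-52803860) and GSTA2 (ENSG00000244067, chr6:52750087-52763475) are another pair of near copies. Their coding sequences are 96.7% identical, with 22 differences in 669 bases. The first 90 coding bases are given for the same reason as above, with the 4 differing positions in capitals.
GSTA1: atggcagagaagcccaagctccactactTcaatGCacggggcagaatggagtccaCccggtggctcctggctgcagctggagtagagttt
GSTA2: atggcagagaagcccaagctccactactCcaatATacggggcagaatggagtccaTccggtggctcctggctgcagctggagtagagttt

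Both had 7 reads or fewer in vector cells of both lines. GSTA1 had 396 reads in A549-myr-AKT1 and 0 in A549-vector cells, which is at least 173-fold higher against a floor of 3 reads. In HCC827 it had 2 reads against 0, at or under the floor, and no fold is given. GSTA2 had 270 reads against 7 in A549, or 309 against 6.11 normalised counts, a log2 fold of 5.66 (4.60 to 6.99). In HCC827 it had 25 reads against 0, at least 13.2-fold higher. The reads of both genes together were 666 against 7 in A549 and 27 against 0 in HCC827, a sum that does not depend on the split between them.

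The remaining transferases fell into 2 patterns. GSTA4, which handles lipid peroxidation products, had 823 against 467 normalised counts in A549 and 367 against 83.4 in HCC827, log2 folds of 0.82 (0.65 to 0.98) and 2.14 (1.81 to 2.47). The mu class genes were higher in both lines as well, GSTM3 with 445 against 196 and 477 against 186 (1.18, 0.94 to 1.42, and 1.36, 1.12 to 1.60) and GSTM4 with 355 against 198 and 135 against 35.8 (0.84, 0.59 to 1.09, and 1.91, 1.40 to 2.45). Of the stretches of GSTM4, 4.56% occur in other genes, mostly GSTM1, which had at most 2 reads in any library. GSTP1, the pi class enzyme, which carries the ARE core with an AP-1 motif shown above, had 10360 against 15332 and 17234 against 10346 (-0.57, -0.60 to -0.53, and 0.74, 0.70 to 0.77). The membrane-bound MGST1 had 11395 against 10148 and 7778 against 6835 (0.17, 0.13 to 0.21, and 0.19, 0.14 to 0.23).

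The other detoxification genes were mostly higher in myr-AKT1 cells of both lines. EPHX1 (ENSG00000143819, chr1:225810124-225845563), the microsomal epoxide hydrolase, had 10118 against 3750 normalised counts in A549 and 3167 against 1160 in HCC827, nearly equal log2 folds of 1.43 (1.38 to 1.49) and 1.45 (1.36 to 1.54). CES1 (ENSG00000198848, chr16:55802851-55833337), a carboxylesterase, had 890 against 55.9 in A549, a log2 fold of 3.99 (3.62 to 4.38), and 6 reads against 0 in HCC827, at least 3.17-fold higher. It shares 32.9% of its 100-base stretches with other genes, mostly CES1P1, which had at most 2 reads in any library. UGT1A6, a glucuronosyltransferase, had 145 against 37.6 in A549, a log2 fold of 1.95 (1.44 to 2.49), and 30 reads against 1 in HCC827, a log2 fold of 5.57 (2.98 to 10.92). Its last exons are shared with the other UGT1A genes (58.8% of stretches). Of these UGT1A1 had 318 against 50 reads in A549 and 4 against 0 in HCC827. Also in HCC827, UGT1A8 had 14 against 8 reads, UGT1A10 10 against 7, UGT1A7 10 against 0, UGT1A9 3 against 0 and UGT1A4 0 in both. UGDH, which makes the sugar donor for that reaction, had 20296 against 22920 and 16538 against 6850 (-0.18, -0.20 to -0.15, and 1.27, 1.23 to 1.31).

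Across the lines, which are the only replicates of the transduction, the limma fit with line as a block called 3 of 37 members higher in myr-AKT1 cells and 0 lower, against 1.29% higher and 1.73% lower of all 19314 genes. GSTA2 had a fitted log2 fold of 5.23 (SE 0.666, limma adjusted p = 0.0121), EPHX1 1.44 (SE 0.237, limma adjusted p = 0.027) and CES1 3.53 (SE 0.659, limma adjusted p = 0.0357). Each was higher in both lines. These log2 folds are on the log2(value + 1) scale, which understates the change of genes with few reads such as GSTA2 and CES1. At an unadjusted p under 0.05, 13 members were higher and 0 lower, against 9.17% and 9.24% of all genes. AKR1C1 had a fitted log2 fold of 4.50 (SE 1.17, limma adjusted p = 0.0923) and AKR1C3 1.52 (SE 0.454, limma adjusted p = 0.13), higher in both lines but unequal in size. edgeR on the recovered reads called the same 3 genes, DESeq2 called these and GSTM3, and both called 0 members lower. With 1 residual degree of freedom the calls rest on the spread assumed from other genes, and with a pseudocount of 0.1 or without the block 0 members were called.

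The wider pathway was described with a list of 71 further genes, named for their roles and also chosen with earlier results known. In A549, 4 of 66 counted genes had a log2 fold above 1 (6.06%, against 14.8% of all genes) and 4 were below -1 (6.06%, against 9.86%), with a median of -0.10 (-0.04 for all genes). In HCC827, 11 of 62 were above 1 (17.7%, near the 14.0% of all genes) and 3 below -1 (4.84%, against 12.4%), with a median of 0.29 (-0.04 for all genes). The largest HCC827 median among the list's roles was 0.63, for the 11 partners, repressors and degradation factors of NRF2, whose A549 median was -0.34. The 20 other reported NRF2 targets had medians of -0.13 in A549 and 0.45 in HCC827. The other glutathione enzymes had 0.40 and 0.30, and the other antioxidant and NADPH enzymes -0.20 and -0.12. For myr-AKT1 limma and edgeR each called 0 of the 67 list genes tested and DESeq2 called 1 higher, with 6 higher and 6 lower at an unadjusted limma p under 0.05 (8.96% each, close to the 9.17% and 9.24% of all genes). Between the lines limma called 24 of the 67 higher (35.8%, against 15.5% of all genes) and 4 lower in A549 (5.97%, against 13.9%).

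Of the list, AKR1B15, the neighbour and near copy of AKR1B10, had the highest log2 fold in both lines. It had 751 against 177 normalised counts in A549 (2.08, 1.85 to 2.32) and 108 reads against 1 in HCC827 (7.42, 4.91 to 12.73). The next highest in HCC827 was CYP4F11, a fatty acid hydroxylase, with 146 against 11.9 normalised counts (3.61, 2.83 to 4.50) and 1499 against 1619 in A549 (-0.11). In A549 the next was GLRX, a glutaredoxin, with 2711 against 1063 (1.35, 1.25 to 1.45) and 661 against 499 in HCC827 (0.40). CHAC2, which degrades glutathione, was among the lowest in both lines, with 102 against 312 (-1.61, -1.96 to -1.27) and 36.5 against 222 (-2.60, -3.21 to -2.05). The other lowest genes were CBR3, a carbonyl reductase, in A549, with 58.4 against 256 (-2.13, -2.59 to -1.70), and GLRX2, the mitochondrial glutaredoxin, in HCC827, with 240 against 555 (-1.21, -1.45 to -0.97). Between the lines NFE2L3, a relative of NFE2L2, was lower in A549 (log2 difference -1.78, SE 0.258, limma adjusted p = 0.00409). ALDH3A1 and NR0B1, a nuclear receptor, had reads in A549 and 0 in both HCC827 libraries, whereas PRDX2, a peroxiredoxin, had 0 reads in both A549 libraries and 1978 and 2405 normalised counts in HCC827.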

How the data were processed

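RNA of vector and myr-AKT1 cells of A549 and HCC827 was sequenced in strand-specific libraries, 1 for each condition. The submitters' notes name Bowtie2, HTSeq and hg38. The methods describe RPKM and polyA selection, whereas the labels describe removal of ribosomal RNA. The deposited signal is, per gene, the reads that the authors counted divided by a size factor, which they set within a cell line. Reads were recovered from the value of 1 read. Values were whole within 0.001 for 100% of genes detected in myr-AKT1 libraries and 99.996% in the vector libraries (all but 1 gene each). Recovered reads ranged from 16322183 to 33530317 per library.

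The 38 members, the roles and the further pathway list of 71 genes were chosen with earlier results of these data known. Genes were named from GENCODE 44 (60261 of 60558 identifiers matched). Every member is named, and further genes by rank: the 2 highest and 2 lowest log2 folds of each line (mean of at least 50) and of the comparison between lines. Folds within a line are ratios of the deposited values with 95% Clopper-Pearson intervals, which cover counting error only. They were counted where both libraries had at least 1 read and the values had a mean of at least 10, and no p-value was computed within a line. limma with a mean-variance trend was fitted to log2(value + 1) over 4 libraries and 19314 genes kept by filterByExpr, with line as a block (1 residual degree of freedom). The lines are the only replicates of the transduction. Lines were compared after rescaling by median-of-ratios size factors over the 4 libraries, with myr-AKT1 as a covariate. P-values were adjusted by Benjamini-Hochberg over all genes fitted. TPM was computed from recovered reads and the summed exon length. Alternatives were edgeR, DESeq2, TMM, total counts, other pseudocounts, filters and thresholds, and fits without the block or covariate. The fits were also run on simulated counts in which the effect of myr-AKT1 did not differ between the lines. That setting differs from these data, so it is no check of the calls made here. Fits were run in R 4.3.3 (DESeq2 1.42.0, edgeR 4.0.16, limma 3.58.1), and tables and plots were made in Python 3.11.15 (matplotlib 3.10.9, pandas 2.3.3, scipy 1.17.1, numpy 2.4.6).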

Additional observations from a re-analysis of the deposited data

Results flagged for a closer look

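In 16 of the 38 genes and in 1 gene of the further list the counting interval of the log2 fold lay below 0 in A549 and above 0 in HCC827. With size factors over the 4 libraries 15 of the 38 genes had this pattern, and AKR1B10, GPX2 and CYP4F11 no longer had it. The difference between lines, given as the HCC827 minus the A549 log2 fold, was not tested, because 4 libraries leave no residual degree of freedom for it. It was 3.39 for OSGIN1, 3.22 for AKR1B10, 2.45 for FTH1 and 2.42 for GPX2. It was 1.99 for GCLC, 1.86 for FTL, 1.67 for SRXN1, 1.63 for PGD, 1.45 for TXNRD1, 1.45 for UGDH, 1.30 for GSTP1 and 1.16 for NFE2L2. The smallest were 0.997 for GSR, 0.96 for SLC7A11, 0.82 for GCLM and 0.73 for NQO1. Of the further list CYP4F11 was added for its rank, with 3.73.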

How the results depend on the processing

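Scaling moved the median of all genes by at most 0.10 on the log2 scale, in A549 with size factors over the 4 libraries. With these AKR1B10 in A549 turned from -0.06 to 0.043, the A549 median of the members was -0.020 (0.07 for all genes) and 1 member lay below -1. At a threshold of log2 fold 2, 2 members in A549 and 8 in HCC827 lay above it and 0 in A549 below. At a mean of at least 500 (chosen after seeing the data), 2 members in A549 and 10 in HCC827 lay above 1, with medians of -0.31 and 0.64 (-0.12 and -0.10 for all genes). In the limma fit of myr-AKT1, 250 genes were called higher and 335 lower. A pseudocount of 0.1 or no line block gave 0 and 0, with 0 members. Keeping every gene with a read anywhere gave 1101 and 894, with 14 members higher, and DESeq2 gave 552 higher. Between the lines 3000 genes were higher and 2675 lower in A549, and without the covariate 1645 and 1343, with 10 members higher. IDH1 was the 1 member called lower with DESeq2, TMM, total counts or every gene with a read. The median difference was 1.99 between vector libraries (35 members) and 1.04 between myr-AKT1 libraries (37 members). The fit with line as a block pairs the vector and myr-AKT1 libraries of each line. The labels give no replicate numbers, so no other pairing was run. Leaving out a library leaves no residual degree of freedom and was not run. Depth limits genes at 0 to 3 reads (AKR1C2, CES1, GSTA1, GSTA2 and UGT1A6 in HCC827-vector), whose folds are bounds or have wide intervals.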
